A study of Mus musculus with 8 samples.

Results

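The regions described here are stretches of mouse chromatin that were enriched for BRG1 in Tβ4-primed, injured-adult hearts and that lie at the 3' ends of protein-coding genes. They were chosen by position alone. A region was taken if it lay on chromosomes 1 to 19, was at most 100 kb long, shared at least 1 bp with the annotated 3' end of a protein-coding gene or the 500 bp on each side of it (together the 3' window), and lay more than 1 kb from every annotated transcription start site (TSS). The rule kept 7681 of the 492131 regions of at most 100 kb on these chromosomes (1.56%), in a list of 524614 regions in all. Before the TSS condition 9714 regions touched a 3' window, and 2033 of them were dropped because a TSS lay within 1 kb.

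The ChIP-seq part of the study asked whether BRG1 might regulate other epicardial genes besides Wt1. It compared adult hearts primed with PBS or with thymosin β4 (Tβ4), a small actin-binding peptide, before infarction. The adult mice were C57BL/6 by the labels and C57BL/6J in the methods. They were aged 10 to 12 weeks by the labels and somewhat older by the methods. Priming lasted 7 days, with Tβ4 at 12 mg/kg or PBS injected into the peritoneum each day. The left anterior descending coronary artery was then tied off for good (myocardial infarction, MI), and injections were repeated on days 0 and 2. Whole hearts were collected at day 4 and chromatin was precipitated with a polyclonal antibody against BRG1. There were 2 ChIP samples and 2 input samples in each of the PBS-primed and Tβ4-primed groups, 8 in all. The Tβ4-primed regions came as 1 list without a score, a count or a value for either duplicate, so no level, no replicate error and no difference between Tβ4- and PBS-primed hearts could be given. The depth behind the list is unknown. Whole hearts hold cardiomyocytes, fibroblasts, endothelium, epicardium and infiltrating leukocytes, and the cells that carried a region cannot be told apart. The 95% intervals printed below cover counting error only and treat genes and regions as independent.

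BRG1, encoded by Smarca4, is an ATPase of the SWI/SNF chromatin-remodelling complexes, which slide or evict nucleosomes. The 3' end of a protein-coding gene is where the nascent RNA is cleaved and polyadenylated after the hexamer AATAAA, or its common variant ATTAAA, has been transcribed, and where RNA polymerase II afterwards terminates. Nucleosomes near gene ends and starts are remodelled during transcription, and SWI/SNF complexes are best known at promoters and enhancers.

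To show what lies inside these regions, the following 30-base stretches were read from the mm9 genome around the hexamer nearest to the 3' end of genes whose region covered it. Each is given 5' to 3' on the strand of its gene, with the hexamer AATAAA in capitals. The genes are 5 of the study's own epicardial and cardiac genes, a facing pair of genes that share 1 region, and 1 or 2 genes each of the sarcomere, fibroblast, SWI/SNF and 3' processing lists.
Dmkn, chr7:31566044-31566073, plus strand: tttctctgtggaAATAAAacatgactcttt
Upk1b, chr16:38773300-38773329, minus strand: tgcctatccataAATAAAggagcccataaa
Col1a2, chr6:4491493-4491522, plus strand: tgtgaaaaataaAATAAAgcatttttggtt
Lrp1, chr10:126975243-126975272, minus strand: gatattgttataAATAAAattgtaaaaaag
Myh6, chr14:55560766-55560795, minus strand: tggccaatccacAATAAAcataaacgttcg
Mest, chr6:30698427-30698456, plus strand: ttattttctattAATAAAaacaaactgtga
Copg2, chr6:30697557-30697586, minus strand: tctaaatattttAATAAAgtccacagaaac
Tpm1, chr9:66870410-66870439, minus strand: ataatgatatgaAATAAAacgcacatttag
Lmod2, chr6:24555379-24555408, plus strand: tgtaaatatgaaAATAAActttttttttta
Pdgfra, chr5:75594192-75594221, plus strand: tctttatatttcAATAAAtgatttattata
Arid1b, chr17:5347624-5347653, plus strand: ccttgcttttaaAATAAAgtgcctcctaac
Cstf2t, chr19:31161049-31161078, plus strand: taatgaaaattaAATAAAaaggttgtataa

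In these 12 genes the last base of the hexamer lay 13 to 38 bases before the annotated end, and the BRG1 region spanned the hexamer in each, since the genes were picked for that. Genes with and without the hexamer held a region about equally often. Among protein-coding genes whose 3' window lay more than 1 kb from every TSS, 10304 had AATAAA in the last 50 bases and 40.1% of them had a region (39.2 to 41.1%). The share was 39.4% (37.4 to 41.4%) of the 2326 genes with ATTAAA alone and 40.1% (38.7 to 41.5%) of the 4760 genes with neither hexamer. The intervals of the 3 groups overlapped.

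The 7681 regions lay at the ends of 7275 of 21418 protein-coding genes, or 34.0% (33.3 to 34.6%). Because the rule excludes regions near a TSS, 4028 genes whose 3' window reaches within 1 kb of a TSS had little chance of holding one, and 320 of them did (7.94%). Among the other 17390 genes, here called genes with a separate 3' end, 6955 held a region, or 40.0% (39.3 to 40.7%). These shares, 34.0% and 40.0%, are the background for every gene list below. Most genes with a region had 1 of them (6439 genes), 823 had 2 and 13 had 3. A region usually belonged to 1 gene end (7241 regions), but 440 touched the ends of 2 or more genes and 413 of these joined ends on opposite strands.

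Windows of the same size elsewhere held BRG1 regions about as often as the 3' ends did. The same TSS rule was applied to windows of equal size at fixed distances along each gene's strand, and 3' ends with sequenced bases throughout gave 40.0% of 17379 windows. At 5, 10 and 50 kb downstream the share was 40.4% (39.7 to 41.1%) each time, an interval that overlapped that of the 3' ends. Inside genes longer than 15 kb the shares were higher, at 43.0% (42.1 to 44.0%) for windows 5 kb upstream of the end and 42.7% (41.7 to 43.6%) for windows 10 kb upstream, while the 3' ends of genes of at least 10 kb, by length class, were at 41.0 to 42.2%. Counting every region, also those near a TSS, brought the 6 positions closer together, with 42.9% at the 3' end and 42.2% to 43.7% at the others. The mean share of bases inside a region was 27.0% at the 3' end, 27.3% at both upstream positions and 25.4% to 25.8% downstream.

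**Figure D1:**
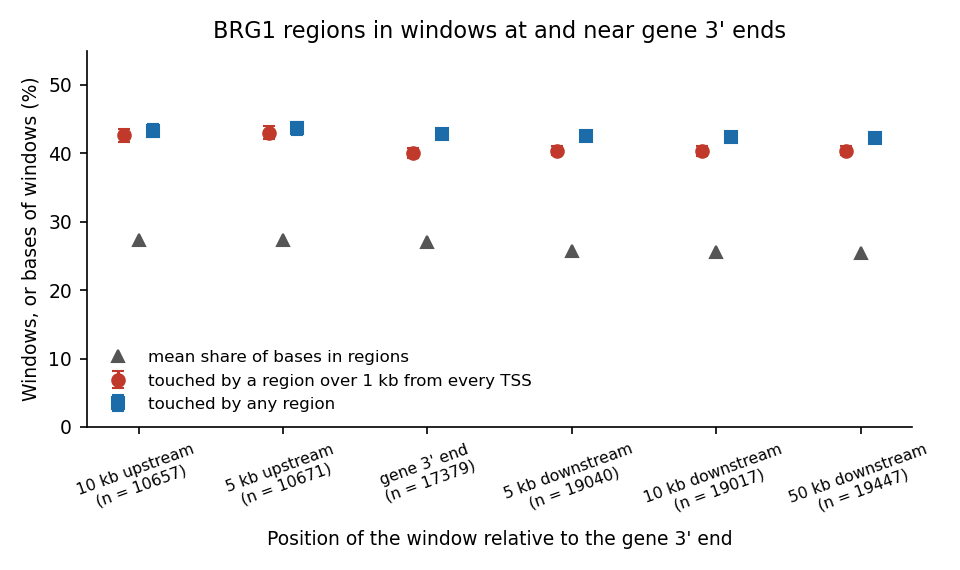
Share of windows (1 base and 500 bp on each side) touched by a BRG1 region (circles, under the TSS rule; squares, any region; bars, 95% Wilson intervals) and mean share of window bases inside regions (triangles), by the position of the window relative to the gene 3' end. The 3' end, at 40.0% under the rule, lies near the downstream windows at 40.4% and below the upstream windows at 42.7% and 43.0%.

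A profile in steps of 100 bp was nearly flat around the end. The annotated end base lay inside a region in 4772 of 17390 genes, or 27.4% (26.8 to 28.1%), which was the highest value of the profile within 5 kb on either side. The lowest was 25.8% at 4200 bp downstream. Between 2 and 5 kb from the end the profile ran from 25.8% to 27.3% with a mean of 26.4%, and within 500 bp it ran from 26.6% to 27.4% with a mean of 27.0%. The highest value between 2 and 5 kb thus lay within the interval of the value at the end. Over all sequenced bases of chromosomes 1 to 19 the regions covered 26.5%. At gene starts, taken over all 21418 protein-coding genes, the coverage was lowest at the start base itself, where it was 24.2%.

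**Figure D2:**
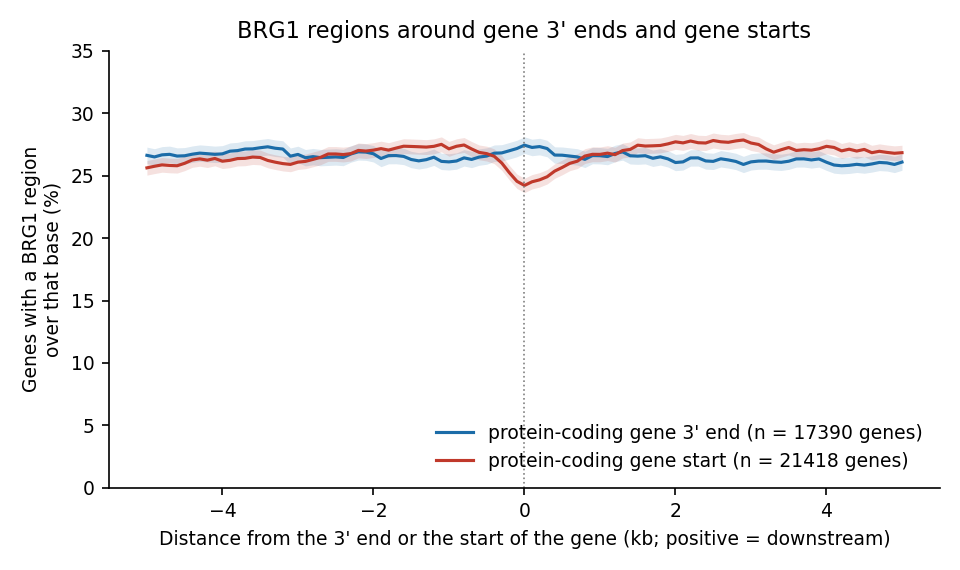
Percentage of protein-coding genes with a BRG1 region over each base, in steps of 100 bp, by distance from the 3' end (blue, 17390 genes with a separate 3' end) or from the gene start (red, 21418 genes). Shading is a 95% normal interval for counting error. The 3' ends stand at 27.4% at the end base and the gene starts dip to 24.2%.

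The regions at 3' ends were longer than the list as a whole. Their median length was 1110 bp (1080 to 1170 bp) with quartiles of 420 and 2730 bp and a mean of 2011 bp, against a median of 600 bp over all 492131 regions. Regions of at most 300 bp made up 18.2% of them and 27.7% of all, whereas regions of at least 5000 bp made up 9.91% and 4.22%. The regions reaching the windows 50 kb downstream, chosen in the same way, had a median of 1110 bp (1080 to 1170 bp) as well, and those at the windows 5 and 10 kb upstream had medians of 1320 and 1410 bp. A long region is more likely than a short one to touch any fixed window, and the difference from the whole list was also present at windows away from gene ends. The 10345 regions within 500 bp of a protein-coding gene start had a median of 1050 bp.

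**Figure D3:**
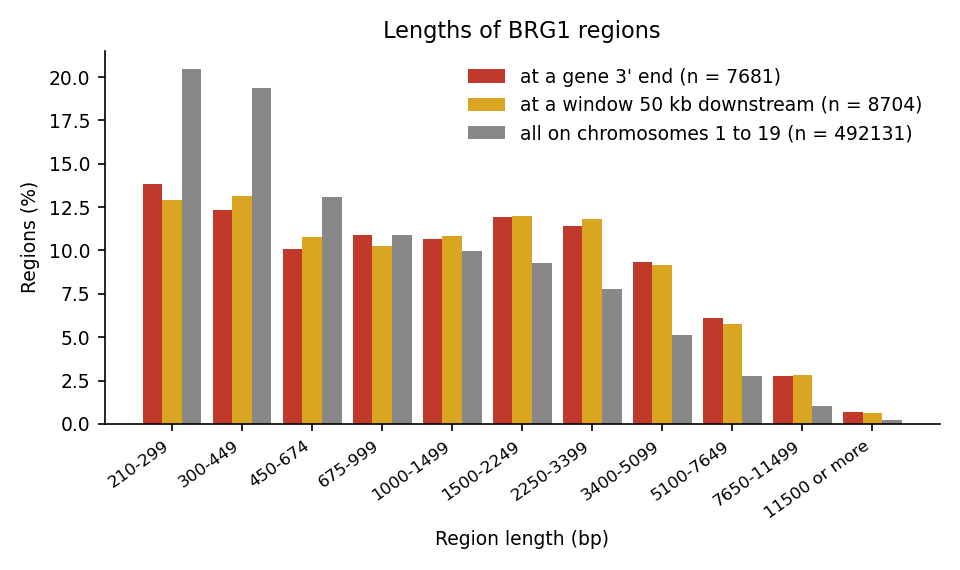
Distribution of BRG1 region lengths in bins of base pairs for 7681 regions at gene 3' ends, 8704 regions at windows 50 kb downstream and all 492131 regions on chromosomes 1 to 19. Bars give the percentage of each set; the 3' end and downstream sets run together, and both hold fewer regions of at most 300 bp than the whole list.

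The median GC content was 44.4% (44.2 to 44.6%) in the regions at 3' ends, 41.8% in all regions and 48.1% in the regions at gene starts. At the windows elsewhere the medians were close to it but lower, at 44.3% (44.2 to 44.5%) 5 kb upstream, 43.9% (43.7 to 44.1%) 10 kb upstream, 44.2% at 5 and 10 kb downstream and 43.9% (43.8 to 44.1%) at 50 kb downstream. The intervals 10 kb upstream and 50 kb downstream did not overlap that of the 3' ends. Within the 3' ends, the windows richest in GC did not hold the most regions. The share with a region was 41.2% (38.5 to 44.0%) for windows under 35% GC, 41.8% (40.2 to 43.4%) at 35 to 40%, 40.3% (38.9 to 41.7%) at 40 to 45%, 39.7% (38.2 to 41.2%) at 45 to 50%, 37.4% (35.6 to 39.2%) at 50 to 55% and 39.3% (36.1 to 42.7%) from 55%. The interval at 50 to 55% GC lay below that at 35 to 40%, and the other intervals overlapped their neighbours.

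A few short motifs were counted in the middle 210 bases of each region, on both strands. The hexamer AATAAA was found in 28.2% of the regions at 3' ends (27.2 to 29.2%). The share was 25.3% (24.3 to 26.2%) in 8293 regions 50 kb downstream and 29.1% in all other regions. These 8293 are fewer than the 8704 regions of the length comparison. The letters TGANTCA, the core that AP-1 factors bind, were found in 5.92%, 6.45% and 6.16% of the same sets. TTGCNNAA, a pattern of C/EBP sites, was found in 8.54%, 8.16% and 9.60%, and AGATAA, a core read by zinc-finger factors of heart and blood development, in 11.4%, 12.2% and 13.7%. A match says only that these letters are present in this window.

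Of the 7681 regions, 4193 (54.6%) covered an annotated end base, 1648 (21.5%, 20.6 to 22.4%) lay only upstream of it and 1840 (24.0%, 23.0 to 24.9%) only downstream, so that slightly more lay beyond the end than before it. In short genes the rule can drop an upstream region for lying near the gene's own start. The part of this in the difference was not tested. Those over the end were the longest, with a median of 2010 bp, and those on either side had a median of 510 bp each. A longer region is more likely to take in any fixed base of a window it touches. The same split is not given for the windows elsewhere, so this contrast is not a trait of 3' ends. The regions over the end reached a median of 826 bp upstream and 789 bp downstream, and 49.4% (47.9 to 50.9%) reached farther downstream than upstream. A whole 3' window was covered by a single region in 1966 genes. At the limits of the rule, 236 regions shared at most 30 bp with a window and had a median of 540 bp, whereas 233 regions missed a window by at most 30 bp and had a median of 570 bp. At the other limit, 36 regions lay beyond 1 kb from a TSS by at most 30 bp (median 795 bp) and 22 regions at a 3' end were left out for falling short by less than 30 bp (median 705 bp).

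Most regions took in the 3' untranslated region (UTR). A 3' UTR was touched by 68.8% of them, an intron by 38.3%, coding sequence by 39.7% and sequence outside genes by 67.0%, and 34.6% held a stop codon. Of their sequenced bases 41.7% lay outside genes, 26.9% in introns, 23.6% in 3' UTRs and 6.31% in coding sequence. Of the bases of the 3' windows themselves, in genes with a separate 3' end, 42.2% lay outside genes, 9.58% in introns, 39.9% in 3' UTRs and 6.97% in coding sequence. When each class was taken on its own within these windows, 25.3% of 3' UTR bases, 24.8% of bases outside genes, 23.4% of intron bases and 21.7% of coding bases were inside a chosen region.

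The share of genes with a 3' end region changed with gene length and with the coverage of the rest of the gene. It was 33.0% (31.2 to 34.8%) in genes under 5 kb and 40.7% at 5 to 10 kb. At 10 to 30 kb it was 41.0%, at 30 to 100 kb 41.2% and from 100 kb 42.2% (40.2 to 44.3%). A region over the end of a short gene can also reach the gene's own start, and the rule then drops it. Whether this lowered the share under 5 kb was not tested. The mean share of window bases inside any region, which the TSS rule does not touch, was 25.6% in the genes under 5 kb and 26.7% to 28.6% in the longer classes. Genes of at least 10 kb were then ranked by the share of the gene covered by regions, leaving out 5 kb at the end, and split into 4 equal groups. A 3' end region that reached more than 5 kb into its gene, such as that of Wt1, entered both the ranking and the count. The part of such regions in the differences between the groups was not tested. The share with a 3' end region was 37.1% (35.4 to 38.9%) in the least covered group, 40.6% and 43.0% in the next ones and 44.6% (42.9 to 46.4%) in the most covered group.

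Among all genes with a separate 3' end, 41.2% (40.1 to 42.3%) of the 7707 with a region at the gene start and 39.0% (38.0 to 40.0%) of the 9683 without one had a region at the 3' end, and a mean of 29.2% and 25.3% of the window bases were inside a region. The covered share also counts regions near a TSS. In genes of at least 10 kb, 41.6% (40.3 to 43.0%) of 5473 genes with a region at the start and 41.1% (39.9 to 42.3%) of 6722 genes without one had a region at the 3' end. In 1678 genes whose end faced the end of another gene within 1 kb, 37.6% (35.3 to 39.9%) held a region, against 40.2% (39.5 to 41.0%) of the other 15712. By chromosome the share ran from 37.1% (34.5 to 39.7%) on chromosome 11 to 42.7% (39.6 to 45.8%) on chromosome 9, and even these intervals overlapped.

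Of the 12 epicardial genes that the study lists, 4 had a region at the 3' end (33.3%, 13.8 to 60.9%), close to the background of 34.0%. Wt1, the Wilms' tumour transcription factor that marks the epicardium, had the broadest. Its region, chr2:105008310-105018749, was 10440 bp long, reached 5463 bp into the gene and 4976 bp beyond its end at 105013773, and covered the whole 3' window. Upk1b, a uroplakin of the mesothelial surface, had a region of 2730 bp that also covered its whole window (chr16:38772240-38774969). At Dmkn, which encodes the secreted protein dermokine, a region of 1200 bp took up 86.4% of the window (chr7:31565250-31566449). At Upk3b, another uroplakin, the region of 1980 bp lay wholly inside the gene and covered 11.7% of the window, ending 384 bp before the gene's end.

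The other 8 epicardial genes had none. At Bnc1, which encodes the zinc-finger protein basonuclin, a region of 2610 bp began 309 bp downstream of the end but lay over the TSS of another annotated gene, so the rule left it out. The nearest regions missed the window at the genes of the transcription factor Gata5 (642 bp from the end, inside the gene) and the adhesion molecule Vcam1 (579 bp, downstream) by a short distance. They were farther away at Tcf21 (1765 bp), Gpm6a (2669 bp), Tbx18 (3216 bp), the keratin gene Krt8 (3543 bp) and Aldh1a2 (4940 bp). Tcf21 and Tbx18 are transcription factors of epicardial progenitors, and Aldh1a2 makes retinoic acid. All of these ends lie in an annotated 3' UTR.

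Of the 8 cardiac genes that the study lists, 5 had a region at the end (62.5%), but with 8 genes the interval ran from 30.6 to 86.3% and held the background of 34.0%. The type I collagen gene Col1a2 had a region of 9540 bp over its end, from 5373 bp upstream to 4166 bp downstream (chr6:4486170-4495709), so that its hexamer shown above lay deep inside. Myh6, the α-myosin heavy chain of adult mouse cardiomyocytes, had 930 bp (chr14:55560390-55561319), which covered 86.8% of the window. Acta2, the smooth muscle α-actin that myofibroblasts also make, had 2490 bp (chr19:34315260-34317749), which covered 82.0%. At Actn2, the α-actinin of the Z-disc, a region of 1320 bp stopped 77 bp before the end. At Lrp1, an endocytic receptor, a region of 360 bp reached 7 bp beyond the end (chr10:126975210-126975569). No region came within 500 bp of the end at the other myosin heavy chain genes Myh7 (nearest at 3115 bp) and Myh7b (2867 bp) or at the troponin T gene Tnnt2 (2583 bp). The study listed both sets of genes as BRG1-enriched in these same ChIP-seq data, so they are not an independent sample of genes, and its assignment of regions to genes was not limited to 3' ends.

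**Figure D4:**
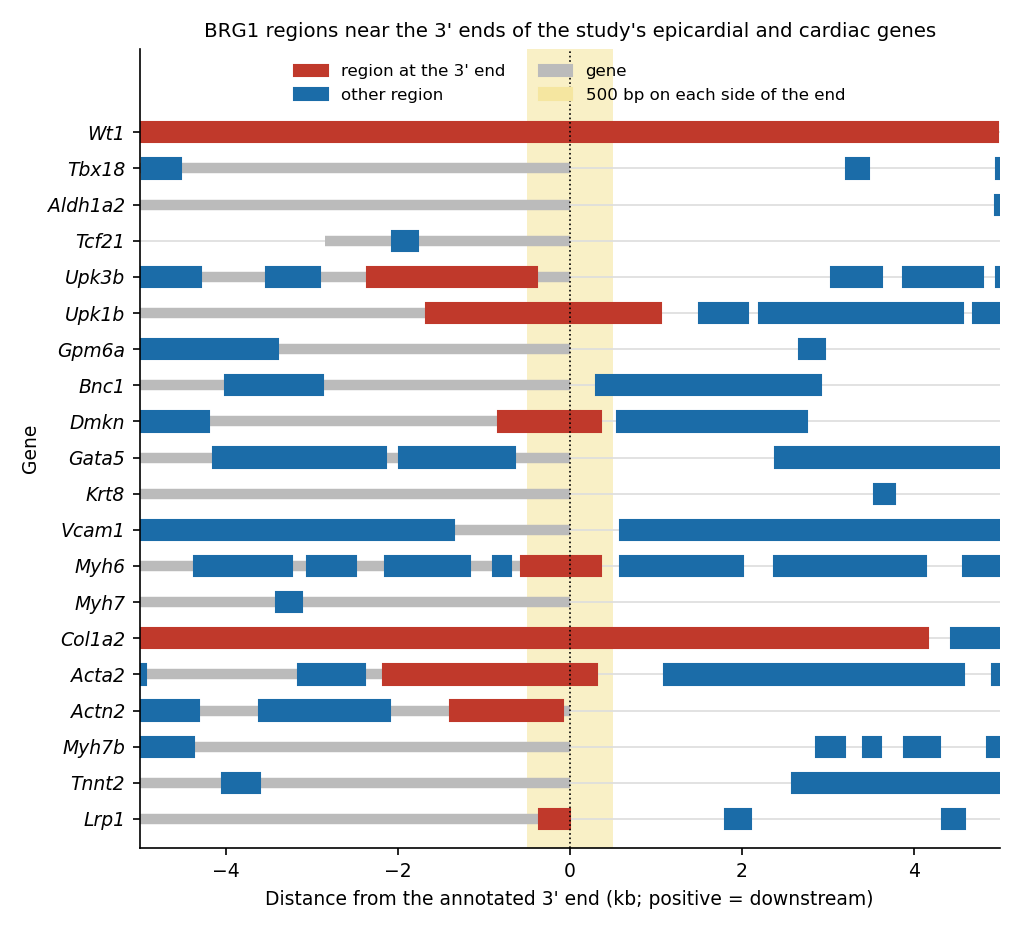
BRG1 regions within 5 kb of the annotated 3' end of the study's 12 epicardial and 8 cardiac genes, drawn to scale in kb with transcription from left to right; red marks the regions at the 3' end, blue the other regions, grey the gene and yellow the 500 bp on each side of the end. Wt1 and Col1a2 stand out by regions that reach 4976 and 4166 bp beyond the end, and 11 of the 20 genes have no red bar.

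Across 10 lists, the study's own, those of heart cell types and functions, and those of SWI/SNF subunits and mRNA 3' processing, 69 of 182 different genes had a 3' end region, or 37.9% (31.2 to 45.1%), and the background of 34.0% lay inside that interval. Counted only over genes with a separate 3' end, the interval of each of these 10 lists held the background of 40.0%. The lists are short, so that shares such as 30.0% of 20 genes and 45.0% of 20 genes do not stand apart from each other by their intervals.

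**Figure D5:**
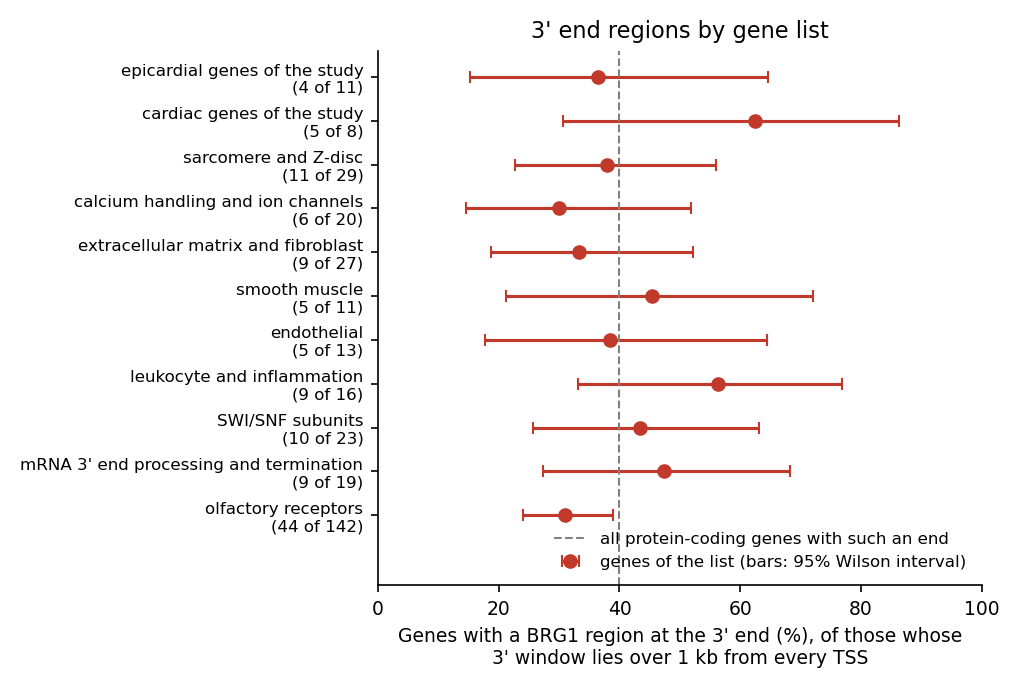
Percentage of the genes of each list that have a BRG1 region at the 3' end, among genes whose 3' window lies over 1 kb from every TSS, with 95% Wilson intervals; the dashed line is the share over all 17390 such protein-coding genes, 40.0%. The intervals of the 10 lists other than olfactory receptors cross the line, and that of the olfactory receptors ends at 39.0%.

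Of the 30 sarcomere and Z-disc genes, 11 had a region (36.7%, 21.9 to 54.5%). Lmod2, a nucleator of cardiac actin filaments, had a region of 1740 bp, Tpm1 (tropomyosin) one of 7200 bp and Xirp2, an actin-binding protein of the intercalated disc, one of 3870 bp, and each covered its whole 3' window. At Myoz2, a Z-disc protein that binds calcineurin, 3540 bp covered 95.4% of the window. The ends of the titin gene Ttn, the myosin-binding protein gene Mybpc3, the light chain genes Myl2, Myl3, Myl4 and Myl7, the cardiac actin gene Actc1 and the desmin gene Des had no BRG1 region within 500 bp; the genes named as lacking a region in the lists by function were picked after their values had been seen.

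Of the 20 calcium handling and ion channel genes, 6 had a region (30.0%, 14.5 to 51.9%). The pore-forming subunit of the L-type calcium channel, Cacna1c, had 7770 bp, and its β-subunit gene Cacnb2 had 2940 bp. Kcnj2, the inward rectifier channel, also had 2940 bp, and Pln (phospholamban, the inhibitor of the sarcoplasmic calcium pump) had 3690 bp. All 4 windows were covered throughout, as was that of the sodium-calcium exchanger gene Slc8a1. The gene of the pump itself, Atp2a2, and that of the ryanodine receptor, Ryr2, had none.

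Of the 27 extracellular matrix and fibroblast genes on these chromosomes, 9 had a region (33.3%, 18.6 to 52.2%). Besides Col1a2, the fibrillar collagen gene Col3a1 had 9000 bp (chr1:45400200-45409199), from 6351 bp upstream to 2648 bp downstream of its end. Pdgfra, a receptor for platelet-derived growth factor on fibroblasts, had 7140 bp, most of it in the 6160 bp beyond the end, and Timp2, an inhibitor of matrix metalloproteinases, had 3180 bp. The fibronectin gene Fn1 and the periostin gene Postn had none. In the smooth muscle list 5 of 11 genes had a region (45.5%, 21.3 to 72.0%), among them Acta2, the leiomodin gene Lmod1 (780 bp), the cofactor gene Myocd (4410 bp, of which 4213 bp lay beyond the end) and the smooth muscle actin gene Actg2 (840 bp, ending 371 bp before the end).

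Of the 15 endothelial genes, 5 had a region (33.3%, 15.2 to 58.3%). It was 5550 bp long at the receptor gene Tie1, where it covered the whole window, 810 bp at Kdr, the main endothelial receptor for vascular endothelial growth factor, 1200 bp at the junction protein gene Pecam1 and 330 bp at the lymphatic receptor gene Flt4. Of the 20 leukocyte and inflammation genes, 9 had a region (45.0%, 25.8 to 65.8%). Ccr2, the chemokine receptor of inflammatory monocytes, had 4680 bp and the chemokine gene Cxcl12 had 2490 bp, and both windows were covered throughout. The macrophage receptor genes Csf1r (840 bp) and Mrc1 (810 bp) had shorter regions over their ends.

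Of the 24 genes of SWI/SNF subunits, 10 had a region (41.7%, 24.5 to 61.2%). Arid1b, which encodes a DNA-binding subunit, had 1800 bp over its whole window, and its paralogue Arid1a had 1830 bp over 91.6% of it. Arid2, the corresponding subunit of the PBAF complex, had 1830 bp, of which 1615 bp lay beyond the end. Actl6a, an actin-related subunit, had 2 regions, of 240 bp before and 1260 bp after the end. Of the 22 genes for mRNA 3' processing and termination, 9 had a region (40.9%, 23.3 to 61.3%). Cstf2t, a cleavage stimulation factor, had a region of 3570 bp that covered the whole window. Pabpn1, the nuclear poly(A)-binding protein, had 1260 bp over 91.6% of the window, and Cpsf1, a subunit of the factor that reads the hexamer, had 2 regions of 300 and 630 bp.

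Olfactory receptor genes served as genes that the heart is not known for using. Of 1106 on these chromosomes 136 had a region under the rule, or 12.3% (10.5 to 14.4%), but their median length was 960.5 bp, so that a region at the end usually lay near the gene's own start. Any region within 500 bp of the end was counted at 450 of them, or 40.7%, against 9184 of all 21418 protein-coding genes, or 42.9%, and 26.7% of their window bases were inside a region, against 26.8% over all protein-coding genes. Among the 142 with a separate 3' end, 44 had a region (31.0%, 24.0 to 39.0%), below the 40.0% over all such genes and close to the 33.0% over genes under 5 kb with a separate end. Olfr112 (1440 bp), Olfr1229 (5700 bp), Olfr1243 (8250 bp) and Olfr1247 (1560 bp) had windows covered throughout.

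The longest regions of the set were of 2 kinds. The longest 2, of 55710 bp at the facing ends of Mest and Copg2 (chr6:30697470-30753179) and of 54180 bp downstream of Snrnp40 (chr4:130067640-130121819), consisted mostly of unsequenced bases of the mm9 assembly, 50000 and 50100 of them, so that their length cannot be read as BRG1 occupancy. Mest is an imprinted gene and Copg2 encodes a coat protein of transport vesicles and is read from the opposite strand. Only 5 of the 7681 regions held any unsequenced base. The next 8 held none. They lay at Abca1, the cholesterol exporter (22650 bp), Mpped1 (19230 bp), the carboxylesterase gene Ces1g (18600 bp), Dhx36, a helicase of G-quadruplexes (17340 bp), Plcl1 (17010 bp), the diacylglycerol kinase gene Dgkb (16590 bp), Cspg4, the NG2 proteoglycan of pericytes (16290 bp), and Iqgap2, a scaffold of the cytoskeleton (15990 bp). At Abca1 the region reached 16380 bp into the gene and 6269 bp beyond it, whereas at Plcl1 only 1236 bp lay inside the gene and 15773 bp beyond it. At Dhx36 and Ces1g the regions ended 9 and 152 bp before the end of the gene.

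Another arrangement, several regions around 1 end, was found at 13 of 21418 protein-coding genes, with 3 regions each. The 5 with the most covered windows were Upf3a, of nonsense-mediated decay (76.0% of the window covered), Setd1b, a histone H3 lysine 4 methyltransferase (67.0%), and the chaperone gene Bag6, the Polycomb-type gene L3mbtl2 and the clock gene Per1 (61.0% each). In all 5 the middle region lay over the end base, with another region before it and another after it. With 3 separate regions in a window centred on the end, the middle one tends to lie over the end base. How often windows elsewhere held 3 regions is not given here. At Per1 the regions were 1110, 270 and 240 bp long, and at L3mbtl2 they were 420, 270 and 510 bp. The other 3 genes each had a region above the median length of the set, of 1170 bp at Upf3a, 1410 bp at Bag6 and 5190 bp at Setd1b.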

How the data were processed

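The series holds BRG1 ChIP and input libraries of infarcted hearts after priming with PBS or Tβ4, 2 of each kind per group. The authors mapped reads with Bowtie 1.0.0 to mm9 and called regions with MACS2 2.0.10, as the processing notes and methods state. The deposited list holds a start and an end for each Tβ4-primed region and no count, score or p-value. In the methods the MACS2 step is bdgcomp, but the deposited list is named as outputs of bdgdiff, which compares 2 conditions, usually are. The list may thus hold regions stronger in ChIP than in input in such a comparison and not plain peaks. The name also carries a value that in bdgdiff naming is the cutoff of the call. Which call was made and how the duplicates were joined are not given in the sources used here. What that cutoff means for the strictness of the call is thus unknown, as is the depth. PBS-primed regions were not analysed here.

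Regions were counted from position 1 against the mm9 genome and GENCODE M1 annotation, whose chromosome lengths equal those of mm9. The 3' end was the outermost base of the gene record. Distances, overlaps and covered bases were computed in Python 3.11.15 with numpy 2.4.6, pandas 2.3.3 and scipy 1.17.1, and figures were drawn with matplotlib 3.10.9. Shares carry 95% Wilson intervals and medians 95% order-statistic intervals. Comparison windows lay 5 and 10 kb upstream, in genes over 15 kb, and 5, 10 and 50 kb downstream, and held no unsequenced base. No test was run, since the single list has no replicate. The scripts were tested on simulated regions, where they matched bedtools 2.31.1 for the regions and bases at 21418 of 21418 gene ends and found 200 of 200 planted ends.

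Named genes were the study's 12 epicardial and 8 cardiac genes, those at the 10 longest regions, up to 4 genes per list with the most covered windows (ties by symbol), and the 5 genes with the most regions. Not every gene under this rule is reported here. The set of regions and the gene lists were chosen with earlier results of these data known. One listed symbol, Tnnc1, has more than 1 gene record and was counted once, and 1 listed gene lies on the X chromosome. Alternatives were other window sizes, TSS distances, overlaps, region lengths, gene ends and gene sets.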

Additional observations from a re-analysis of the deposited data

How the results depend on the processing

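No paired analysis was possible because the list has no column for either duplicate, and no duplicate could be left out. The values follow from the rule's settings. With 250 bp on each side of the end, 28.1% of protein-coding genes had a region, the median length was 1440 bp, the GC content 44.1% and 70.9% of regions covered the end base. With 1000 bp these were 43.8%, 870 bp, 44.7% and 37.3%. With at least 200 bp of overlap they were 29.4%, 1350 bp, 44.2% and 66.8%. With regions of at least 600 bp alone, they were 24.3%, 2010 bp, 43.9% and 69.0%, with 23.1% of window bases covered. This filter acts on length and raises the median by itself, and it does not stand in for a stricter call. With regions within 500 bp joined, 31.8% of genes had a region, the median length was 2070 bp, 62.8% covered the end and 28.5% of window bases were covered. With every protein-coding transcript end, 12090 regions were chosen at 42.6% of genes, with a median of 1050 bp and 55.9% over an end. With genes of at least 5 kb alone the values were 38.9%, 1230 bp and 56.7%. With no distance from a TSS beyond no overlap 38.7% of genes had a region, with more than 2 kb 30.3%, and with the starts of all transcripts as TSSs 32.1%. With only ends over 1 kb from every TSS, a setting added after the data were seen, 40.0% of genes had a region and 56.0% of regions covered the end. In all 33 values moved, beyond their intervals or for counts by more than 1.5 times, and 48 did not. The count of regions, 7681 as reported, was among the unmoved at 5140 with regions of at least 600 bp and at 11239 with 1000 bp. The unmoved also include the setting without a length limit, which left every value as it was. Of the counts of single gene lists 15 moved and 117 did not. The smooth muscle and endothelial counts fell from 5 to 3 each with 250 bp on each side and with at least 200 bp of overlap. With regions of at least 600 bp alone the endothelial count was 3, the leukocyte count 5 in place of 9 and the SWI/SNF count 6 in place of 10. With every transcript end the 3' processing count was 15 in place of 9. The range was widest in the olfactory receptors, from 16 among genes of at least 5 kb to 292 with no distance from a TSS. No stricter threshold of the caller could be tried, since the list has no score.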

Other observations

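The same rule was applied to gene ends outside the set described above. On the X chromosome, 270 of 777 protein-coding genes whose 3' window lay over 1 kb from every TSS had a region (34.7%, 31.5 to 38.2%), below the 40.0% (39.3 to 40.7%) on chromosomes 1 to 19. The 306 regions at the ends of all 932 protein-coding genes of the X chromosome had a median length of 1305 bp. Long intergenic non-coding RNA genes on chromosomes 1 to 19 had one at 408 of 1022 ends (39.9%, 37.0 to 43.0%), and genes annotated as processed transcripts at 684 of 1792 (38.2%, 35.9 to 40.4%). Pseudogenes had one at 190 of 655 ends (29.0%, 25.7 to 32.6%). The 342 regions at the ends of all 4055 pseudogenes had a median length of 645 bp. The part of copy number, mappability or gene length in these shares was not tested.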
